A study of Arabidopsis thaliana with 4 samples.

Results

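The 2179 genes described here are those the authors listed as higher in wild-type leaf explants of Arabidopsis thaliana (Col-0) after 4 days on callus inducing medium than at day 0. They are all rows of 1 of the deposited tables, out of 2773 genes listed in the series, and they make up 8.91% of the 24442 genes the authors tested. Plants were grown for 12 days at 22 °C with 16 h of light and 8 h of darkness. Both leaves of the first pair were then cut off and sampled at once (day 0) or after 4 days on the medium in continuous darkness (day 4). The tissue was labelled as whole leaf explants at day 0 and as whole leaf explants with callus at day 4. Each day had 1 library of total RNA, so no difference given here could be checked against replicates, and p-values were not computed. Time since excision, the medium and darkness all changed between the days and cannot be told apart. The series also holds 1 library a day from lbd16-2 plants, a mutant of LBD16 under the same treatment, used below only for a second view of day 0.

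Leaf explants of Arabidopsis form callus when the medium supplies auxin together with cytokinin. The callus does not arise from every leaf cell but mainly from cells along the veins, and as background it passes through a state that shares many regulators with the early lateral root primordium. Auxin response factors and LBD proteins act early in that route, PLETHORA and WOX genes mark the root stem cell niche that forms within it, and mitotic genes, wall-loosening enzymes and new surface barriers accompany the growth.

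Levels are given as normalised reads, which are the reads of a gene divided by the size factor of its library. The size factors were 1.43 at day 0 and 1.41 at day 4, so 1 read was worth 0.698 and 0.708 normalised reads. Total reads per library were not analysed here. Levels of different genes are compared only as normalised reads per kb of the longest annotated transcript. Folds are ratios of normalised reads with exact binomial 95% intervals in parentheses, which hold counting error alone, between 2 libraries. Where day 0 had no read, the fold is given as a minimum, taken against 3 reads in the day 0 library (2.09 normalised reads). Whole explants were measured, so more cells of a type and more RNA per cell cannot be told apart.

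The list was made with a limit of 8-fold on the authors' log2 scale, and it holds only genes that passed it upwards. Genes that fell, that changed less, or that stood just under the limit were not analysed here. With the lowest deposited log2 folds, just inside it were AT2G04050, a transporter of the MATE family, with 25.8 normalised reads in the fresh leaf and 214 at day 4, 8.28-fold (5.87 to 12.0), and DIC3, a mitochondrial dicarboxylate carrier, with 27.9 normalised reads in the fresh leaf and 231 at day 4, 8.27-fold (5.94 to 11.8). AT1G54840, a small heat shock-type protein, had 6.98 normalised reads in the fresh leaf and 63.0 at day 4. Counting error alone reaches below the limit for all 3. In the authors' deposited table the median log2 fold was 4.56 and the largest 11.6, and 251 listed genes (1.03% of those tested) had an FDR under 0.05, while 1419 (5.81%) lay above 16-fold.

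The listed genes held 94199 reads at day 0 and 2837436 at day 4. The day 4 reads were concentrated in few genes: the 10 with the most reads held 18.8%, the 100 with the most held 52.0%, and 91 genes sufficed for 50% of them. Across the list the day 4 level ran from 7.08 to 71059.9 normalised reads, with a median of 168. The median fold was 23.7, with minimum values entered for the 677 genes without a day 0 read. Among the other 1502 genes it was 27.0.

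**Figure D1:**
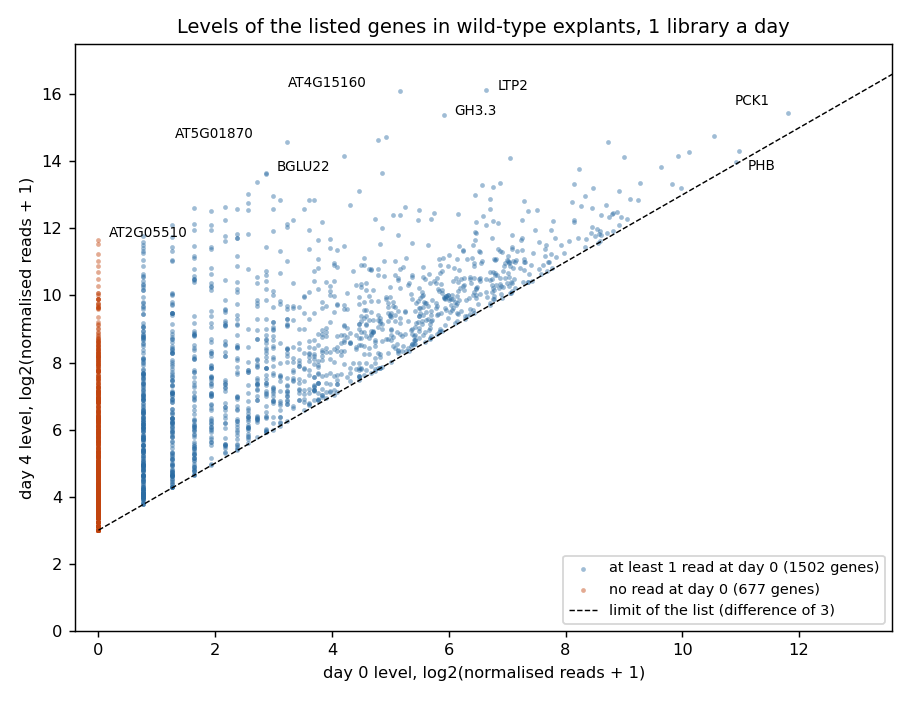
Level of each of the 2179 listed genes at day 0 (horizontal) and at day 4 (vertical), both as log2(normalised reads + 1), with 1 library a day. Orange points are the 677 genes with no read at day 0, blue points the other 1502, and the dashed line is the 8-fold limit; orange points reach 3205 normalised reads at day 4 and blue points 71059.9.

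By day 4 level per kb the list was headed by genes for small secreted proteins of the lipid-transfer type, which bind lipids and are deposited at surfaces and walls. LTP2 (AT2G38530) had 99.1 normalised reads in the fresh leaf and 71059.9 at day 4, 717-fold (608 to 852). LTP3 (AT5G59320) had 17.4 normalised reads in the fresh leaf and 18421 at day 4, 1056-fold (715 to 1632). The related AT4G15160 and AT5G01870 stood between them, at 63751 and 35245 normalised reads per kb beside 63845 for LTP2 and 23954 for LTP3. AT2G19970, which encodes a secreted protein of the CAP family to which PR-1 belongs, went from 26.5 to 25412 normalised reads, 959-fold (698 to 1355).

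The next places belonged to metabolic and regulatory genes, several of which were already well read in the fresh leaf. GH3.3, an enzyme that conjugates auxin to amino acids, went from 59.3 to 42389 normalised reads. PCK1, the phosphoenolpyruvate carboxykinase that turns organic acids into sugar precursors, had 3612 normalised reads in the fresh leaf and 44834 at day 4, 12.4-fold (12.1 to 12.8). PYK10, a beta-glucosidase of endoplasmic reticulum bodies that is typical of roots, had 1484 normalised reads in the fresh leaf and 27820.3 at day 4, 18.7-fold (17.9 to 19.6). EBP, also called RAP2.3, an ethylene response factor of the group that acts in low oxygen, had 2008 normalised reads in the fresh leaf and 20114 at day 4, 10.02-fold (9.64 to 10.4). ST2A, a sulfotransferase that acts on hydroxylated jasmonate, had 29.3 normalised reads in the fresh leaf and 26899.7 at day 4, 918-fold (679 to 1274). The high levels therefore came about from very different starts, from 42 reads for ST2A to 5177 for PCK1.

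Among genes with at least 10 reads at day 0 the largest folds fell to the 4 lipid-transfer genes, the CAP gene, ST2A, GH3.3 and 3 class III peroxidases, secreted enzymes that oxidise phenolics and make or use hydrogen peroxide in the wall. AT2G38380 had 6.98 normalised reads in the fresh leaf and 7939 at day 4, 1138-fold (619 to 2374). Prx37 had 7.67 normalised reads in the fresh leaf and 7406 at day 4, 965-fold (539 to 1934). AT2G18980 had 6.98 normalised reads in the fresh leaf and 6106 at day 4, 875-fold (476 to 1826). The 3 peroxidases began with 10 or 11 reads each, so their intervals are wide although the day 4 levels are high.

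For 677 of the 2179 genes (31.1%, or 2.77% of the genes tested) no read was counted at day 0. A count of 0 allows up to 3 reads, so these genes were not detected in the fresh leaf at this depth, which does not show that they were silent. A further 456 genes had 1 to 3 reads, 261 had 4 to 9, 565 had 10 to 99 and 220 had 100 or more. The genes without a read were mostly low at day 4 as well. Their median was 29.7 normalised reads at day 4, against 349.9 for the 1502 genes with reads, and 174 of them (25.7%) against 1136 (75.6%) reached 100. Only 11 of the 677 reached 1000, against 403 (26.8%) of the others, and together the 677 genes held 4.01% of the listed day 4 reads. The limit sets part of this difference, because a gene without a day 0 read passed from 10 reads upwards and a gene with 100 day 0 reads needed about 8 times as many.

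Of the genes without a day 0 read, the 10 highest per kb were mixed in function. AT3G63360, a defensin-like gene for a small cysteine-rich secreted protein, led with 6773 normalised reads per kb, followed by the glycine-rich protein gene AT2G05510 with 3947 and AOX1B with 1955. AOX1B encodes an alternative oxidase, which lets mitochondrial electrons bypass part of the respiratory chain. AT2G18370, another lipid-transfer type gene, had no read in the fresh leaf and 950.3 normalised reads at day 4, which is at least 454-fold higher. Its neighbour in the locus numbering, AT2G18360, encodes an alpha/beta hydrolase and had no read in the fresh leaf and 1433 normalised reads at day 4, which is at least 685-fold higher. AT5G09480, for a hydroxyproline-rich glycoprotein, had no read in the fresh leaf and 864 normalised reads at day 4. AT1G26720 and AT3G60650, for proteins without a known function, reached 960.2 and 1029 normalised reads, AT4G09940, for a P-loop hydrolase, reached 1869, and the long noncoding RNA AT2G04805 reached 359.

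The lbd16-2 day 0 library gave a second look at these genes in other plants. Its size factor was 1.08, against 1.43 for wild type day 0, so the same level gave fewer reads and more zeros in it. Of the 673 with a value there, 500 (74.3%) also had no read, 151 had 1 to 3, 22 had more than 3 and 3 had more than 9, with 21 reads at most. Of the 1502 genes with wild-type day 0 reads, 190 (12.6%) had none in lbd16-2. Among the 174 genes that reached 100 normalised reads at day 4, 116 had no read in either day 0 library and 7 had more than 3 in lbd16-2. Some genes with wild-type reads differed widely between the day 0 libraries: PYK10 had 6705 normalised reads in lbd16-2 against 1484 in wild type, and AT5G26260, for a TRAF-like protein, had 438 against 20.9. These are other plants of another genotype and not replicates of the wild type, so genotype and library cannot be told apart.

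Promoter sequence was described for the 250 bases before and 50 bases from the annotated start, from the RefSeq annotation of TAIR10.1, for all 27443 nuclear protein-coding genes with a full window. The TATA-type word TATAAA on the gene strand lay in 37.2% of all these windows, in 46.2% of the 2125 windows of listed genes and in 49.6% of the 645 without a day 0 read. The word GGCCCA on either strand, common at genes for ribosome and other housekeeping functions, lay in 15.5% of all windows, 8.09% of listed and 4.96% of those without a day 0 read, and AAACCCTAA in 3.604%, 2.31% and 2.79%. The 62 windows of listed cell division genes went the other way on 2 of these words, with TATAAA in 29.0% and GGCCCA in 21.0%. The upstream 250 bases of the 2 highest protein-coding genes without a day 0 read that hold TATAAA there are printed 5′ to 3′ on the gene strand, with the word in capitals, to show where it sits. That of AT3G63360 is chr3:23401680-23401929 on the minus strand, with the word starting 111 bases before the annotated start, and that of AOX1B is chr3:7903847-7904096 on the plus strand, with the word 38 bases before it.
AT3G63360: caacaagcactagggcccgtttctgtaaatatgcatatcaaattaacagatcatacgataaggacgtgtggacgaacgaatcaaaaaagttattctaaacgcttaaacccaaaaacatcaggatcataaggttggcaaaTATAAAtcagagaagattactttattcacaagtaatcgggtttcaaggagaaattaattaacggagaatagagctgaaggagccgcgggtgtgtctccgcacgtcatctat
AOX1B: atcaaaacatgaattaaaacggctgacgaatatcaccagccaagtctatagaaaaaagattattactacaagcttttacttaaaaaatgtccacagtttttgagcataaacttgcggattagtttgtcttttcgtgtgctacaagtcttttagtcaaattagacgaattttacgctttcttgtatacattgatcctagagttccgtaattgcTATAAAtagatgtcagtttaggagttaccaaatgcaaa
A match shows only that these letters are in the window.

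When the list was cut into 4 bands of nearly equal size by day 4 level per kb, day 0 reads and level went together. The 8-fold limit sets part of this, because a gene without a day 0 read could pass at a lower day 4 level. The highest band (544 genes, 450.02 to 63845 normalised reads per kb) held 85.1% of the listed day 4 reads, and 35 of its genes (6.43%) had no read at day 0. In the next (119 to 446 per kb) there were 90 such genes (16.5%), in the one after it (32.8 to 119) 189 (34.7%) and in the lowest (2.59 to 32.7) 363 (66.6%). The lowest band held 0.677% of the day 4 reads. Genes for transcription factors were spread evenly, with 65, 66, 70 and 56 from the highest band to the lowest, and genes for proteins of unknown function numbered 49, 74, 61 and 74.

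**Figure D2:**
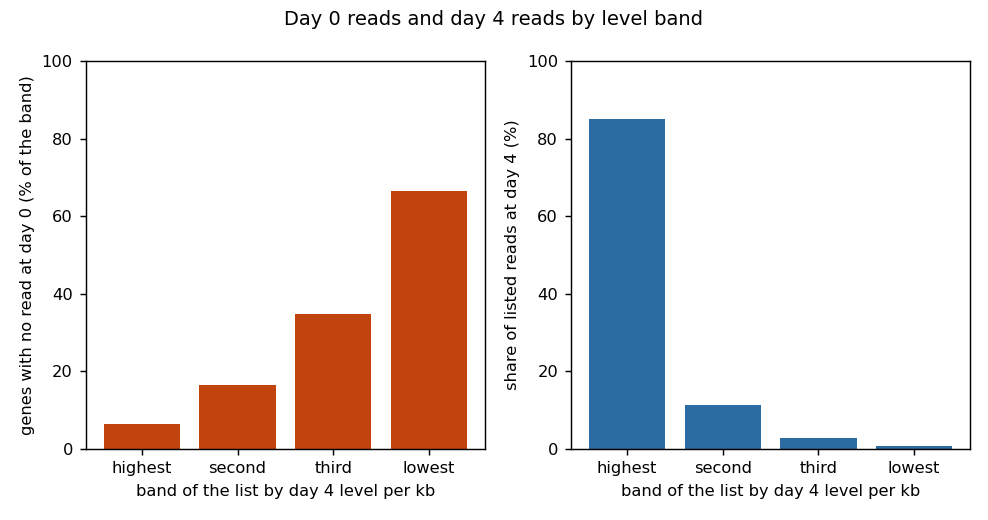
Share of genes with no read at day 0 (left, percent of the 544 or 545 genes of a band) and share of the listed reads at day 4 (right, percent), for the 4 bands of the list by day 4 level per kb. The share without a day 0 read goes from 6.43% in the highest band to 66.6% in the lowest, while the share of reads goes from 85.1% to 0.677%. The 8-fold limit of the list sets part of the first of these trends.

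Functions were read from the RefSeq annotation, with each nuclear protein-coding gene put in 1 of 67 classes. Of 27444 annotated genes 2125 (7.74%) were listed, which is the background for every class. The best represented groups of classes were cell division with IQ-domain proteins, at 62 of 257 genes (24.1%), hormone conjugation and response with 32 of 147 (21.8%), lipid handling and LEA proteins with 95 of 466 (20.4%), transcription with 257 of 1648 (15.6%) and the cell wall with 189 of 1249 (15.1%). The hormone group held only auxin-related genes, of the GH3, Aux/IAA and SAUR families. Redox enzymes without class III peroxidases had 146 of 1229 (11.9%), transport 98 of 862 (11.4%), defence 58 of 520 (11.2%), specialised metabolism 90 of 820 (11.0%) and signalling 156 of 1668 (9.35%). LEA proteins and IQ-domain proteins, which bind calmodulin and microtubules, were counted in those groups, and without them lipid handling had 63 of 356 (17.7%) and cell division 52 of 182 (28.6%). Below the background were proteins of unknown function with 258 of 3811 (6.77%), protein turnover with 91 of 1947 (4.67%) and core functions such as ribosomal proteins, histones and chaperones with 16 of 1256 (1.27%).

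**Figure D3:**
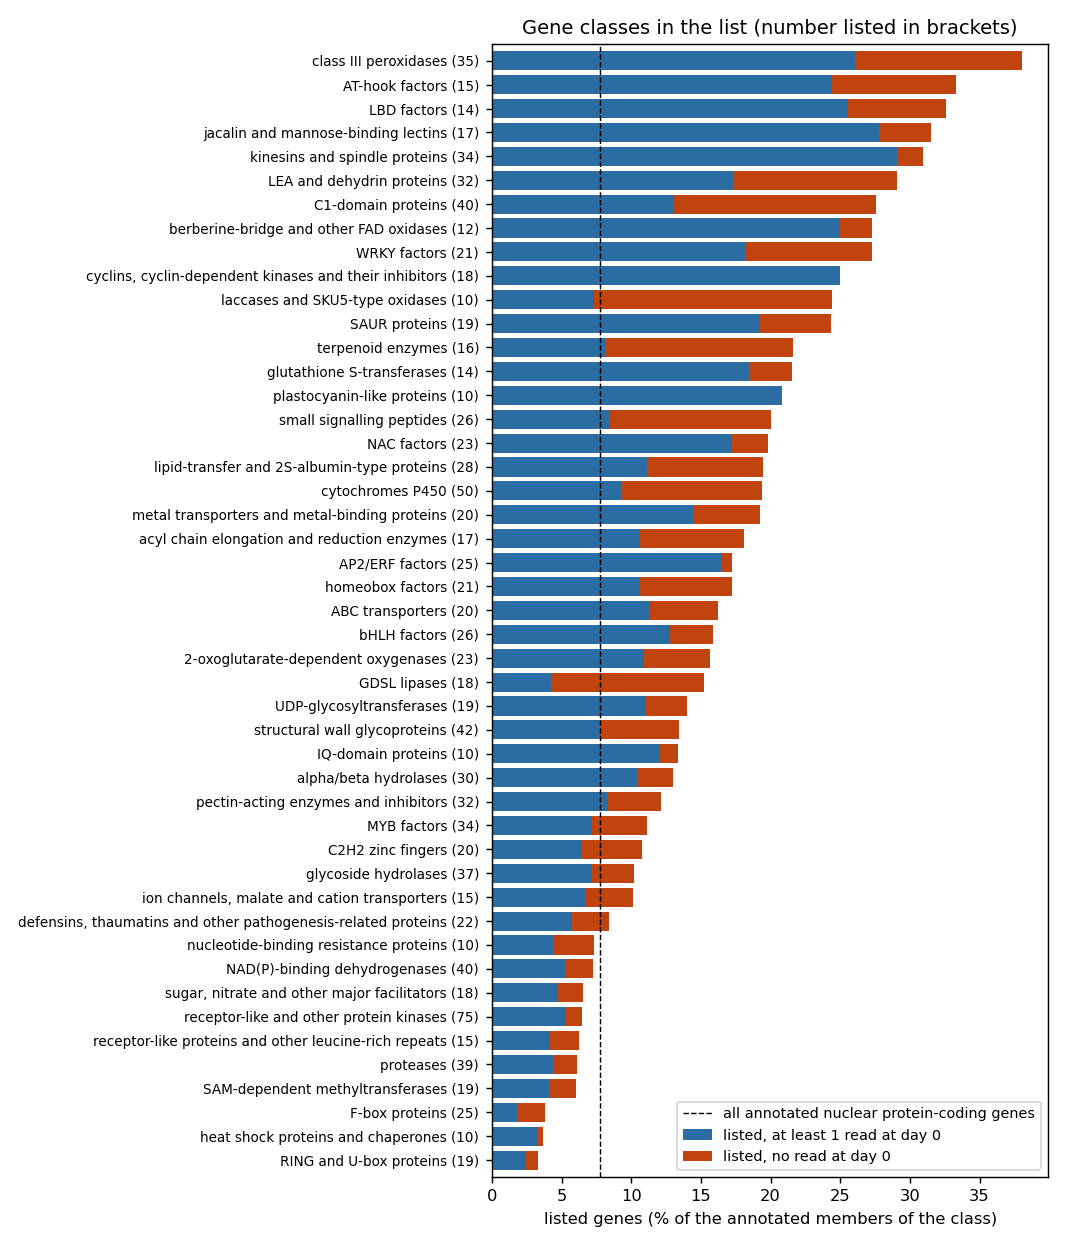
Share of the annotated members of each class that is listed (percent), for named classes with at least 10 listed genes, split into genes with reads at day 0 (blue) and without (orange). The dashed line is the 7.74% of all annotated nuclear protein-coding genes; class III peroxidases reach 38.04%, and cyclins and plastocyanin-like proteins have no orange part.

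The groups differed in whether their genes had been read in the fresh leaf. Of the 62 cell division genes 3 (4.84%) had no day 0 read, against 45 of 95 lipid and LEA genes (47.4%). The share was 104 of 258 for genes of unknown function (40.3%) and 66 of 189 for wall genes (34.9%), beside 31.1% of the whole list. Among genes with at least 50 normalised reads at day 4, cell division had 3.33% and lipid and LEA genes 36.4%. Wall genes (18.7%) and genes of unknown function were then near the 16.8% of the whole list. Of these groups, only cell division and lipid and LEA genes still stood apart at that level. As a share of the reads of all listed genes, lipid and LEA genes went from 2.59% (2.49 to 2.69, exact 95% interval) at day 0 to 13.1% (13.06 to 13.14) at day 4, and hormone genes from 2.07% (1.98 to 2.17) to 5.91% (5.89 to 5.94). At day 4 the lipid and LEA share was 9.91% without LTP2, and the hormone share 3.89% without GH3.3. Cell division genes went the other way, from 5.92% (5.77 to 6.07) to 3.26% (3.24 to 3.28), and transcription from 13.1% (12.8 to 13.3) to 8.93% (8.90 to 8.97). Without LEA proteins the lipid share went from 2.297% to 12.0%, and without IQ-domain proteins the cell division share from 5.52% to 2.97%. A falling share here is one within a list in which every gene increased.

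**Figure D4:**
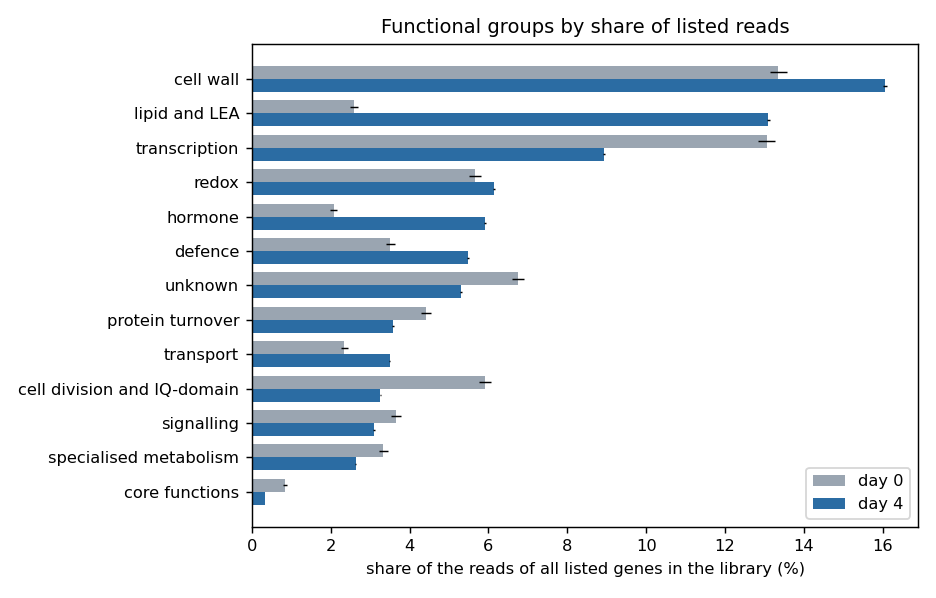
Share of the reads of all listed genes (percent) taken by each functional group in the day 0 library (grey) and the day 4 library (blue), with exact 95% counting intervals as bars. Lipid and LEA genes go from 2.59% to 13.1% and cell division and IQ-domain genes from 5.92% to 3.26%.

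Cell division genes were well read before culture and moved by moderate folds. All 23 members of a list of mitotic genes were listed, against 8.91% of all genes tested, none of them without day 0 reads and 19 of them in the highest band. Their median deposited log2 fold of 4.12 lay below the 4.56 of the whole list. This and the other gene lists below were chosen with earlier results of these data known. The shares of their members listed are therefore descriptions and do not measure enrichment. CDKB2;1, a cyclin-dependent kinase of mitosis, had 207 normalised reads in the fresh leaf and 2053 at day 4, 9.91-fold (8.79 to 11.2). SYP111, also called KNOLLE, the syntaxin that fuses vesicles at the cell plate, had 156 normalised reads in the fresh leaf and 2063 at day 4, 13.2-fold (11.5 to 15.2). CDC20.1, an activator of the anaphase-promoting complex, had 243 normalised reads in the fresh leaf and 2934 at day 4, 12.1-fold (10.8 to 13.52). The kinesin and spindle class had 34 of 110 genes listed (30.9%), 2 of them without a day 0 read, and cyclins, cyclin-dependent kinases and their inhibitors 18 of 72 (25%), all with day 0 reads. TPX2, a spindle assembly factor, had 109 normalised reads in the fresh leaf and 2181 at day 4, and the Aurora kinase gene AUR1 had 107 normalised reads in the fresh leaf and 1654 at day 4. IQ-domain proteins had 10 of 75 listed (13.3%), with iqd15 highest at 2.09 normalised reads in the fresh leaf and 2218 at day 4, 1059-fold (362 to 5140.2). None of 19 DNA replication genes passed the 8-fold limit, and 1 of 64 histone genes did.

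The 5-base core AACGG of the element bound by the MYB factors of the G2 to M transition lay, on either strand, in 24.7% of all promoter windows and 24.8% of listed ones. It lay in 40 of the 62 cell division windows (64.5%), in 34 of 52 (65.4%) without IQ-domain proteins, and in 16 of the 23 of the mitotic list (69.6%). The 250 bases before the start of the 2 highest mitotic genes with a match there are printed, with AACGG or its reverse complement in capitals. SYP111 (chr1:2711001-2711250, minus strand) has 1 match, and CYC1BAT, also called CYCB1;2 (chr5:1861704-1861953, minus strand), has 4, of which 2 are on the gene strand.
SYP111: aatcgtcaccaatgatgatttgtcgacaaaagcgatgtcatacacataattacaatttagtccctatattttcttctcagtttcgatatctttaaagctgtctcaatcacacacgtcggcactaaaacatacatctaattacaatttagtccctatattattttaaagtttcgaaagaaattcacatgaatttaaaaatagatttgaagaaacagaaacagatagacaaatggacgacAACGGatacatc
CYC1BAT: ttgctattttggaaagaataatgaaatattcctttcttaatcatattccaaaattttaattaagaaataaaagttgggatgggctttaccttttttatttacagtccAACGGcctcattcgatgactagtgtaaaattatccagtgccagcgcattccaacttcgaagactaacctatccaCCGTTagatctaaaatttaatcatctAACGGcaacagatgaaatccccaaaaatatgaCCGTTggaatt
CYC1BAT, a B-type cyclin gene, had 137 normalised reads in the fresh leaf and 2097 at day 4, 15.3-fold (13.3 to 17.8).

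Transcription factor families differed in the share of their genes that was listed. AT-hook factors had 15 of 45 genes listed (33.3%), LBD factors 14 of 43 (32.6%), WRKY factors 21 of 77 (27.3%) and NAC factors 23 of 116 (19.8%), while C2H2 zinc fingers had 20 of 186 (10.8%) and bZIP factors 6 of 85 (7.06%). Families also differed in level. Of 25 listed AP2/ERF genes 12 were in the highest band and 1 had no day 0 read, whereas of 34 listed MYB genes 3 were in the highest band and 12 had no day 0 read, and none of the 20 C2H2 genes was in the highest band. The MYB share without a day 0 read, 35.3%, was near the 31.1% of the whole list. When up to 3 reads counted as absent, the shares came to 44.0% of the AP2/ERF and 76.5% of the MYB genes, beside 1133 of all 2179 genes. Among genes with at least 50 normalised reads at day 4 the shares without a read were 4.35% and 10.5%, beside 16.8%.

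The highest factors per kb after EBP were PHB, KDR, AIL6 and AT1G36060. PHB, a homeodomain factor that sets the upper leaf side and vascular pattern, had 1947 normalised reads in the fresh leaf and 16020.1 at day 4, 8.23-fold (7.91 to 8.56). AIL6, also called PLT3, a PLETHORA factor of root and shoot stem cells, had 93.5 normalised reads in the fresh leaf and 9992 at day 4, 107-fold (90.2 to 128). KDR, a small bHLH protein that acts in light-dependent growth, had 215 normalised reads in the fresh leaf and 3949 at day 4, 18.4-fold (16.4 to 20.7). AT1G36060, known as WIND3, of a family that promotes dedifferentiation at wounds, had 18.8 normalised reads in the fresh leaf and 6584 at day 4, 349.5-fold (240.1 to 531). PHB started high and passed the limit narrowly, while AT1G36060 started from 27 reads.

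Regulators of the root primordium and of root stem cells had 18 of 25 listed (72%, against 8.91% of genes tested), 5 of them with no day 0 read, and their median deposited log2 fold was 8.15. After AIL6, BBM, another PLETHORA-type factor, was highest per kb, with 1.40 normalised reads in the fresh leaf and 2542 at day 4, 1821-fold (504 to 15046). WOX5, which keeps the stem cells around the root quiescent centre, had no read in the fresh leaf and 1071 normalised reads at day 4, which is at least 511-fold higher. LBD18, an LBD factor of lateral root emergence, had 4.19 normalised reads in the fresh leaf and 1340.1 at day 4, 320.1-fold (147 to 873). Outside this list, LRP1, a zinc finger gene first found in lateral root primordia, had 6.98 normalised reads in the fresh leaf and 3914 at day 4, 561-fold (305 to 1170.4). MP, the auxin response factor ARF5 that acts in embryonic root and vein formation, was already present, with 493 normalised reads in the fresh leaf and 5159 at day 4, 10.5-fold (9.69 to 11.3). All 4 root cap factors on a marker list were listed (SMB, FEZ, BRN1 and BRN2), FEZ unread in the fresh leaf and at 485 normalised reads at day 4, and their part in the root genes of the list was not tested. Of 4 root hair markers 1 was listed (RHD6), of 6 endodermis markers 1 (MYB36, at 12.0 normalised reads, with CASP1 to CASP5 not listed), and 0 of 6 xylem, 0 of 4 phloem, 0 of 4 guard cell and 0 of 4 trichome markers passed the limit. None of 5 leaf markers was in the table, and their levels were not analysed here.

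The bHLH class had 26 of 164 genes listed (15.9%), 8 of them in the highest band, where KDR was followed per kb by HFR1, IBH1 and PIL1. HFR1, a bHLH factor that restrains the shade response, had 114 normalised reads in the fresh leaf and 4591 at day 4, 40.1-fold (34.4 to 47.1). PIL1, a relative of the phytochrome-interacting factors, had 4.19 normalised reads in the fresh leaf and 3370.2 at day 4, 805-fold (369.6 to 2195). IBH1, a growth-restraining helix-loop-helix protein, had 203 normalised reads in the fresh leaf and 2930.0 at day 4, 14.4-fold (12.8 to 16.3). PIL1 had 6 reads at day 0 and the other 2 more than 100 each.

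The listed auxin conjugation and response genes had day 0 reads, few in some cases, and mostly high day 4 levels. Of 35 such genes 12 were listed (34.3%, against 8.91% of genes tested), all with day 0 reads, and 11 of the 12 were in the highest band, with a median of 5745 normalised reads at day 4. GH3.5, named WES1 in the annotation, had 424 normalised reads in the fresh leaf and 24352 at day 4, 57.4-fold (53.0 to 62.3). GH3.2, named BRU6, had 27.9 normalised reads in the fresh leaf and 12805 at day 4, 459-fold (337 to 642). GH3.6, named DFL1, had 117 normalised reads in the fresh leaf and 10369 at day 4, 89.0-fold (76.4 to 104). GH3.1 began with 6 reads at day 0 and reached 6131 normalised reads at day 4. The GH3 class as a whole, 7 of 22 genes with 1 lacking a day 0 read, went from 1.16% (1.09 to 1.23) to 4.86% (4.83 to 4.88) of the listed reads. IAA19, an Aux/IAA repressor of auxin response, had 276 normalised reads in the fresh leaf and 7093 at day 4, 25.7-fold (23.2 to 28.5), and IAA29 had 34.9 normalised reads in the fresh leaf and 5358 at day 4. SAUR genes, whose products promote cell expansion, had 19 of 78 listed (24.4%), but only 3 in the highest band, with SAUR22 at 709.7 normalised reads at day 4. NIT2, a nitrilase linked to auxin and nitrile metabolism, had 5.58 normalised reads in the fresh leaf and 10602 at day 4, 1899.5-fold (964 to 4401). Of 26 genes of auxin synthesis and transport 6 were listed (23.1%), 1 of them without a day 0 read.

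The auxin response element core TGTCTC, on either strand, lay in 14.2% of all windows, in 14.4% of listed windows and in 8 of the 12 windows of this auxin list (66.7%). The 250 bases before the start of its 2 highest members with a match there are printed with the core in capitals. In GH3.3 (chr2:9866563-9866812, minus strand) it starts 116 bases before the annotated start, and in WES1 (chr4:13653329-13653578, plus strand) 47 bases before it.
GH3.3: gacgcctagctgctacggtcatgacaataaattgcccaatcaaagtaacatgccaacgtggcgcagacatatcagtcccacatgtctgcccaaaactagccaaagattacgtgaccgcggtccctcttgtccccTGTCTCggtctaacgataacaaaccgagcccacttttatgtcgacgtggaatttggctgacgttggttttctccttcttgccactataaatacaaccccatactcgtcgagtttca
WES1: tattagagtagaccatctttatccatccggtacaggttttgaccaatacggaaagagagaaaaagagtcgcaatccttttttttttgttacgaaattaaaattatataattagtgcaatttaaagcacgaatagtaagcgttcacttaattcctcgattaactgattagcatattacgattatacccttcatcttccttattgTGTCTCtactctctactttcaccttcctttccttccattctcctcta
Some other words were also more frequent in the 12 windows of the auxin list than in all windows. TATAAA lay in 9 (75%, against 37.2%) and TTGACC in 6 (50%, against 14.2%). CACGTG and ACGTGG lay in 4 each (33.3%, against 7.68% and 9.85%). TTGACT was less frequent, in 2 (16.7%, against 21.8%).

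Lists for other hormones also had more members listed than the 8.91% of all genes tested. Of 25 cytokinin genes 7 were listed (28%), and the highest were cytokinin oxidases, which break the hormone down. CKX3 had 4.19 normalised reads in the fresh leaf and 2338 at day 4, 558-fold (256 to 1523), and CKX5 had 117 normalised reads in the fresh leaf and 1458 at day 4, 12.4-fold (10.6 to 14.6). Of 12 ethylene synthesis genes 4 were listed (33.3%): ACS8, an ACC synthase, had 87.2 normalised reads in the fresh leaf and 3715 at day 4, 42.6-fold (35.7 to 51.3), and ACO1, an ACC oxidase, had 57.9 normalised reads in the fresh leaf and 1688 at day 4, 29.2-fold (23.4 to 36.7). Of 17 gibberellin and brassinosteroid genes 5 were listed (29.4%), with the catabolic GA2OX6 highest at 413 normalised reads at day 4 and GA2OX4 and GA20OX3 without day 0 reads. Of 25 jasmonate and wounding genes 5 were listed (20%), among them Rap2.6L, an ethylene response factor of wound healing, with 16.0 normalised reads in the fresh leaf and 1852 at day 4.

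Wall genes divided into a high and a low set. Of the 189 listed, 78 (41.3%) were in the highest band and 54 (28.6%) in the lowest. EXPA4, an expansin that loosens the wall, was already abundant, with 1111 normalised reads in the fresh leaf and 19745 at day 4, 17.8-fold (16.9 to 18.7). XTH19, which cuts and rejoins xyloglucan, had 32.1 normalised reads in the fresh leaf and 5431 at day 4, 169-fold (127 to 231). PMEPCRA, a pectin methylesterase, had 795 normalised reads in the fresh leaf and 14602 at day 4, 18.4-fold (17.3 to 19.5). ADPG2, named PGAZAT in the annotation, a polygalacturonase of cell separation, began with 4 reads, with 2.79 normalised reads in the fresh leaf and 5821 at day 4, 2086-fold (814 to 7657). AGP31, an arabinogalactan protein, had 131 normalised reads in the fresh leaf and 17626 at day 4, 134-fold (116 to 156), and the extensin gene EXT4 had 163 normalised reads in the fresh leaf and 5899.7 at day 4, 36.1-fold (31.7 to 41.3). DIR6, a dirigent protein that steers the coupling of monolignols to lignans, had 103 normalised reads in the fresh leaf and 7538 at day 4, 73.0-fold (62.1 to 86.5).

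Glycoside hydrolases on wall and other sugars were led by PYK10 and its relative BGLU22, which had 6.28 normalised reads in the fresh leaf and 12482 at day 4, 1988-fold (1047 to 4348). GH9B13, of the cellulase family, had 107 normalised reads in the fresh leaf and 9712 at day 4, 91.0-fold (77.6 to 107). Class III peroxidases, counted with the wall genes, had 35 of 92 genes listed (38.04%), the highest share of any class with at least 10 listed genes. Of the 35, 11 had no day 0 read and 15 were in the highest band. AT5G64120, a member already read in the leaf, had 546 normalised reads in the fresh leaf and 7478 at day 4, 13.7-fold (12.7 to 14.7). Laccases and SKU5-type oxidases were another case, with 7 of 10 listed genes lacking a day 0 read and 7 in the lowest band. The 2 in the highest band were LAC8, a laccase, with 90.7 normalised reads in the fresh leaf and 2572 at day 4, 28.4-fold (23.8 to 34.0), and SKS1, an SKU5-type protein, with 40.5 normalised reads in the fresh leaf and 1514 at day 4. Of 20 lignin and phenylpropanoid genes 1 was listed (5%), CCR2, with 17.4 normalised reads in the fresh leaf and 391 at day 4.

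The lipid-transfer class had 28 of 144 genes listed (19.4%), 12 without a day 0 read and 18 in the highest band. It went from 1.22% (1.15 to 1.29) of the listed reads at day 0 to 10.3% (10.23 to 10.31) at day 4, or 6.98% when LTP2 was left out of it. GDSL lipases had 18 of 118 listed, 13 of them (72.2%) without a day 0 read. CDEF1, a GDSL esterase that can degrade cutin, had 4.88 normalised reads in the fresh leaf and 6902 at day 4, 1413-fold (686 to 3516). GLL22, another GDSL-type protein, had 13.3 normalised reads in the fresh leaf and 4657 at day 4, 351-fold (225 to 584).

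Enzymes that elongate and reduce acyl chains, for surface and barrier lipids, had 17 of 94 genes listed, 4 of them in the highest band. ADS1, a fatty acid desaturase, had 155 normalised reads in the fresh leaf and 7210.1 at day 4, 46.6-fold (40.8 to 53.4). FAR1, a reductase that makes fatty alcohols of suberin, had 251 normalised reads in the fresh leaf and 2478 at day 4, 9.87-fold (8.85 to 11.0). Of 16 suberin genes 11 were listed (68.8%, against 8.91% of genes tested) and 4 of these had no day 0 read, with a median of 316 normalised reads at day 4. Of 21 cutin and wax genes 4 were listed (19.0%), led by CER1, an enzyme of wax alkane synthesis, with 226 normalised reads in the fresh leaf and 3350.3 at day 4, 14.8-fold (13.2 to 16.6). LEA and dehydrin proteins, which protect cells from drying and were counted in this group, had 32 of 110 listed (29.1%) with 13 lacking a day 0 read, and DI21 was highest with 86.5 normalised reads in the fresh leaf and 8186 at day 4.

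**Figure D5:**
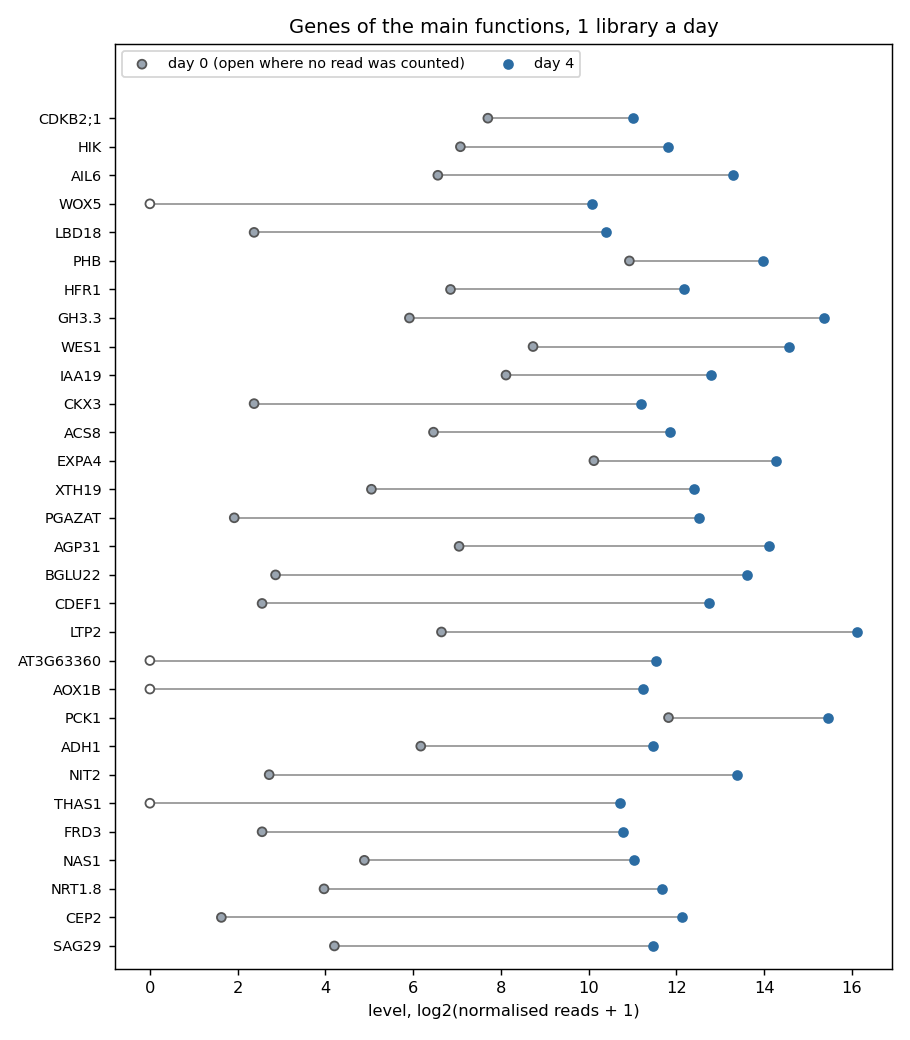
Level at day 0 (grey, open where no read was counted) and day 4 (blue) of named genes as log2(normalised reads + 1), ordered from cell division and transcription at the top to transport and senescence at the bottom, with 1 library a day. Mitotic genes such as CDKB2;1 go from 207 normalised reads to 2053, LTP2 reaches 71059.9 from 99.1, and WOX5, AT3G63360, AOX1B and THAS1 start without a read.

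Redox enzymes other than peroxidases had 146 of 1229 genes listed (11.9%). Berberine-bridge type oxidases, FAD enzymes of the wall and of specialised metabolism, had 12 of 44 listed (27.3%), 8 of them in the highest band, and AT1G30760 had 6.28 normalised reads in the fresh leaf and 12987 at day 4, 2068-fold (1089 to 4524). Glutathione S-transferases, which attach glutathione to reactive compounds, had 14 of 65 listed, with GSTU24 at 94.9 normalised reads in the fresh leaf and 5300.4 at day 4 and its neighbour GSTU25 at 2.79 normalised reads in the fresh leaf and 3939.8 at day 4. TH8, a thioredoxin, had 10.5 normalised reads in the fresh leaf and 6133 at day 4, 586-fold (355 to 1048). Cytochromes P450 differed from these: 26 of the 50 listed (52.0%) had no day 0 read and 5 were in the highest band, with CYP89A9, a P450 of chlorophyll breakdown, highest at 349.5 normalised reads in the fresh leaf and 6215 at day 4. The word TTGACC, part of the W-box of WRKY factors, lay on either strand in 26.7% of the 146 redox windows, 15.0% of listed windows and 14.2% of all windows. It was not particular to redox genes, with 50% of the windows of the auxin list. The related word TTGACT lay in 26.7% of redox, 24.1% of listed and 21.8% of all windows, and a link to WRKY factors was not tested.

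Defence and specialised metabolism were represented by secreted proteins, lectins and biosynthetic enzymes. ATLP-1, a thaumatin-like protein, had 299 normalised reads in the fresh leaf and 13899 at day 4, 46.5-fold (42.3 to 51.3). PR4, a chitin-binding protein, had 353 normalised reads in the fresh leaf and 9531 at day 4, 27.0-fold (24.7 to 29.6). Jacalin and mannose-binding lectins had 17 of 54 genes listed (31.5%), 8 in the highest band. MLP-300B, a lectin that binds myrosinase, had 3.49 normalised reads in the fresh leaf and 6336 at day 4, 1816-fold (778 to 5595), and the adjacent locus JAL33 had 11.2 normalised reads in the fresh leaf and 3935 at day 4. Of 137 nucleotide-binding resistance genes 10 were listed (7.30%, near the 7.74% of all annotated genes), none in the highest band. Of 17 camalexin and indole glucosinolate genes 3 were listed (17.6%), among them PAD3, the last enzyme of camalexin synthesis, with 788 normalised reads at day 4, 13.1-fold (10.5 to 16.6). None of 13 flavonoid genes passed the limit. UGT73B4, a glycosyltransferase of phenolics, had 11.2 normalised reads in the fresh leaf and 7398 at day 4, 663-fold (408 to 1159.8). Terpenoid enzymes had 16 of 74 listed, 10 of them without a day 0 read, led by LUP2, a triterpene synthase, with 280.5 normalised reads in the fresh leaf and 4628 at day 4. THAS1, which makes the root triterpene thalianol, had no read in the fresh leaf and 1669.9 normalised reads at day 4, which is at least 798-fold higher.

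Transport genes had 98 of 862 listed (11.4%). ABCB4, an auxin transporter of root hairs, had 181 normalised reads in the fresh leaf and 5973 at day 4, 33.1-fold (29.2 to 37.5). ABCG37, which exports auxin precursors and coumarins, had 43.3 normalised reads in the fresh leaf and 4882 at day 4, 113-fold (87.9 to 147). FRD3, which loads citrate into the xylem for iron transport, had 4.88 normalised reads in the fresh leaf and 1769 at day 4, 362-fold (176 to 902). NAS1, a synthase of the metal chelator nicotianamine, had 28.6 normalised reads in the fresh leaf and 2081 at day 4, 72.7-fold (53.5 to 102), while NAS2 had no read in the fresh leaf and 829 normalised reads at day 4. In total 7 of 22 iron and zinc genes were listed (31.8%, against 8.91% of genes tested). NRT1.8, which removes nitrate from the xylem, had 14.7 normalised reads in the fresh leaf and 3258 at day 4, 222-fold (145 to 359.6), and GLN1.3, a cytosolic glutamine synthetase, had 900.0 normalised reads in the fresh leaf and 10221 at day 4. Of 20 nitrate genes 4 were listed (20%), and of 18 phosphate genes 2 (11.1%), near the 8.91% of all genes tested. UMAMIT25, an amino acid exporter, had 2 day 0 reads and reached 3417 normalised reads. TIP4;1, a vacuolar aquaporin, had 2.79 normalised reads in the fresh leaf and 1812 at day 4, 649-fold (253 to 2385).

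Proteolysis classes had few members listed, some of them abundant. Proteases had 39 of 638 genes listed (6.11%), RING and U-box proteins 19 of 576 (3.299%) and F-box proteins 25 of 652 (3.83%), all below the 7.74% of all genes. SCPL48, a serine carboxypeptidase of the xylem, had 968 normalised reads in the fresh leaf and 18238 at day 4, 18.8-fold (17.8 to 19.9). CEP1 and CEP2 are cysteine proteases with a retention signal of the endoplasmic reticulum, linked to programmed cell death. CEP1 had 4.88 normalised reads in the fresh leaf and 3656 at day 4, 749-fold (363 to 1863). CEP2 had 2.09 normalised reads in the fresh leaf and 4493 at day 4, 2147-fold (734 to 10412). UPI, an inhibitor of serine proteases, went from 2 reads to 2104 normalised reads. Of 12 darkness and senescence genes 5 were listed (41.7%, against 8.91% of genes tested): SAG29, a sugar transporter, had 17.4 normalised reads in the fresh leaf and 2830.3 at day 4, 162-fold (109.8 to 251), and NAC6, also called ORE1 or NAC092, a factor that drives leaf senescence, had 21.6 normalised reads in the fresh leaf and 1912 at day 4, 88.4-fold (62.1 to 130.4).

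Respiration and low oxygen genes were listed beside them. Of 12 low oxygen genes 9 were listed (75%, against 8.91% of genes tested), all with day 0 reads. ADH1, the alcohol dehydrogenase of fermentation, had 71.2 normalised reads in the fresh leaf and 2825 at day 4, 39.7-fold (32.6 to 48.8). HB1, a haemoglobin that handles nitric oxide, had 20.23 normalised reads in the fresh leaf and 1259 at day 4, 62.2-fold (43.2 to 93.2). Of 14 respiratory bypass genes 3 were listed (21.4%), AOX1B, NDB4 and AOX1D, at 2403, 941 and 272 normalised reads at day 4.

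Signalling genes as a group had a median of 72.1 normalised reads per kb at day 4, against 119 for the whole list. Protein kinases alone had a median of 138. Of 1153 protein kinase genes 75 were listed (6.50%), near or below the background, and 14 had no day 0 read. IMK2, a receptor-like kinase of meristems, had 444 normalised reads in the fresh leaf and 5533 at day 4, 12.5-fold (11.5 to 13.52). Small signalling peptides had 26 of 130 listed (20.0%), 15 of them (57.7%) without a day 0 read. GASA5, a gibberellin-regulated peptide, had 4.88 normalised reads in the fresh leaf and 5990.3 at day 4, 1227-fold (595 to 3052). The root meristem growth factors RGF8 and RGF2, peptides that maintain PLETHORA proteins in the root tip, had 3 reads and none at day 0 and reached 1426 and 524 normalised reads. C1-domain proteins, cysteine- and histidine-rich proteins of mostly unknown role, had 40 of 145 listed (27.6%), 21 of them (52.5%) without a day 0 read and none in the highest band.

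Genes for proteins of unknown function made up 258 of the list. AT3G19200 was highest per kb, with 3.49 normalised reads in the fresh leaf and 4882 at day 4, 1399.5-fold (599 to 4312), and AT3G55240 had 8.37 normalised reads in the fresh leaf and 4487 at day 4. AT1G80130, counted among other named proteins for its tetratricopeptide repeats, stood higher per kb than both and had 514 normalised reads in the fresh leaf and 17986 at day 4, 35.0-fold (32.5 to 37.7). Of the 2179 entries 54 were not protein-coding: 25 long noncoding RNAs, 16 other noncoding RNAs, 9 small nucleolar RNAs and 4 microRNA precursors. These were low and often undetected at day 0, with 16 of 25, 7 of 16, 6 of 9 and 3 of 4 lacking a day 0 read. AT3G59765 was highest among them per kb, with 127 normalised reads in the fresh leaf and 2133 at day 4. ZPR4, a little zipper gene annotated as other RNA, had 57.9 normalised reads in the fresh leaf and 1066 at day 4, 18.4-fold (14.7 to 23.2). The precursors of MIR172a, MIR779 and MIR166b were unread at day 0 and had 11.3, 15.6 and 10.6 normalised reads at day 4, and that of MIR319b went from 1 read to 13.4 normalised reads.

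Some functions were nearly missing from the list. Of 68 genes for chlorophyll-binding and photosystem proteins none passed the limit, of 517 pentatricopeptide genes 1 did (AT1G77150, with 23.3 normalised reads at day 4), and of 334 ribosomal protein genes 4 did. The highest of those 4 per kb, AT5G59240 for a ribosomal S8e protein, had 27.2 normalised reads in the fresh leaf and 641 at day 4.

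Some properties given in the annotation were also counted. Single-exon genes made up 18.9% of all nuclear protein-coding genes, 21.1% of the listed ones and 26.7% of those without a day 0 read, with median coding lengths of 1047, 1026 and 966 bases. By day 4 level per kb, the single-exon share was 16.9% in the highest band and 22.7% in the lowest. Notes in the annotation give expression sites for some genes. Many plant structures were named for 81.6% of all genes with such a note, for 58.6% of the 1031 listed ones and for 31.0% of the 268 without a day 0 read. In the highest band this share was 80.0%, near that of all genes, and in the lowest band it was 40.5%. Where sites were spelled out, a root site without a leaf site was given for 623 of 2480 genes (25.1%) in the whole annotation, for 242 of 427 listed genes (56.7%) and for 109 of 185 without a day 0 read (58.9%). A leaf site without a root site was given for 18.6%, 11.2% and 12.97%. In the highest and lowest bands a root site without a leaf site was given for 59.4% and 51.6%. A location in the endomembrane system, the wall or outside the cell was noted for 33.3% of all genes with a location, for 475 of 952 listed genes (49.9%) and for 191 of 292 without a day 0 read (65.4%). These notes come from earlier studies of other tissues, and no test was made of these shares. The list favours genes with few leaf reads at day 0, so the notes on expression sites are not independent of that selection.

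Neighbouring genes were often listed together. For 325 of the 2125 protein-coding genes (15.3%) the next protein-coding gene on the chromosome was listed too, beside 7.74% of annotated genes, and in 82 of these pairs both belonged to the same class. The longest runs held 4 genes. One on chromosome 2 holds the chitinase-type genes AT2G43580 to AT2G43610, all with day 0 reads and between 16.3 and 6616 normalised reads at day 4. Another on chromosome 4, from CYP705A4 to CYP702A6, holds P450 genes and an acyltransferase gene, 3 of them without a day 0 read and all between 59.4 and 75.7 normalised reads. Reads that match several copies of a tandem gene may have been split or dropped, and the sources used here do not say how such reads were handled, so values of neighbours such as GSTU24 and GSTU25 or MLP-300B and JAL33 are uncertain.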

How the data were processed

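Total RNA from whole explants was sequenced on an Illumina HiSeq instrument, per the labels' protocols. FastQC, Trim Galore, STAR, Cufflinks and DESeq with the TAIR10 build are named, without versions, in the submitters' processing notes. Not given in the sources used here are strand, and how reads matching more than 1 gene were handled. The authors deposited, for each listed gene, a level per library on a log2 scale, a log2 fold, a p-value and an FDR. The deposited levels are log2 of reads divided by a size factor, plus 1, since 100% of the values came out as whole reads within 0.001. How the authors obtained p-values from 1 library a side is not known, and none is used as a test here. With 1 library a group no count model was fitted.

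Reads, normalised reads and folds were computed with Python 3.11.15, pandas 2.3.3, numpy 2.4.6 and scipy 1.17.1, and figures with matplotlib 3.10.9. The steps were tested on simulated data. The number of genes tested, 24442, was recovered from the ranks behind the deposited FDR values (53.1% of them whole). All 2179 identifiers matched RefSeq's annotation of TAIR10.1, which gave names, transcript lengths, notes and promoters. Each gene went to the first of 67 classes whose words its description held. Members and the 24 gene lists were chosen with earlier results of these data known, and class words and some symbol matches were corrected after values had been seen. The genes named are the 10 highest per kb, the 10 highest without a day 0 read, the 10 largest folds with at least 10 day 0 reads, the lowest deposited folds, and the highest members of each class and list. Protein features were not analysed here. Alternatives were a stricter fold, the authors' FDR, other pseudocounts, a level minimum of 50 normalised reads, a 50% thinning of reads, and levels not divided by length. A member of the lists is not reported here.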

Additional observations from a re-analysis of the deposited data

How the results depend on the processing

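With a limit of 16-fold the list held 1419 genes (5.81% of those tested), and with the authors' FDR under 0.05 it held 251, against 2179. With a pseudocount of 5 it held 1533, and with at least 50 normalised reads at day 4 it held 1568. Genes called absent at day 0 numbered 1133 when up to 3 reads counted as absent and 856 after thinning to 50% of the reads, against 677. The median fold was 13.1 with a pseudocount of 5 and 23.6 with a pseudocount of 1. It was 23.7 in the main setting, which used minimum values for genes without a day 0 read. Lipid-transfer genes held 6.98% of the listed day 4 reads without LTP2, against 10.3%. A listed gene had either of its next 2 neighbours listed in 23.2% of cases, against 15.3% for the next gene alone. The number of classes with a larger share listed than all nuclear protein-coding genes under the same setting was 38 in the main list, at 16-fold and with at least 50 normalised reads. Chosen after seeing the data, leaving LEA proteins out of the lipid group gave 12.0% of the listed day 4 reads, against 13.1%, and leaving IQ-domain proteins out of cell division gave 2.97%, against 3.26%. The share without a day 0 read moved beyond its counting interval in 25 of 48 classes when up to 3 reads counted as absent and in 17 of 48 with at least 50 normalised reads, so these shares depend on depth and level. No paired analysis was possible because each group has 1 library, and leaving out a replicate was likewise not possible. The alternative on protein hydropathy was not run.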
